A study of Oryza sativa Japonica Group and Oryza sativa Indica Group with 16 samples.

Results

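salT (LOC4326471, also listed as ML and MRL, on rice chromosome 1 of the RefSeq assembly ASM3414082v1) was measured by 2 of the 57381 probe sets of the Affymetrix rice array, those whose single annotated gene is LOC4326471, which makes it 1 of 17905 genes that a probe set named alone. In flag leaves of the upland rice IRAT109 no array exceeded an intensity of 416.2 at any stage, whereas in the paddy rice ZS97 the brighter probe set gave 5006.9 or more from moderate drought on, against 54.4 or less before stress. The gene was chosen by its measured intensities in these same arrays, for this pattern, so its values are given as a description, with the standard error (SE) of each difference and without a test.

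salT encodes a small mannose-binding lectin of the jacalin-related type. It was named as a rice gene whose transcript accumulates under salt, and it is known to respond also to drought, abscisic acid and jasmonate. Jacalin-related lectins bind carbohydrates, and the cytosolic members of the family are known mainly from stressed and wounded tissue. Abscisic acid is the hormone that accumulates as leaves lose water, and dehydrin genes such as RAB21 and RAB16B are its well-known targets. Jasmonate is made from membrane lipids by lipoxygenases (LOX), allene oxide synthase (AOS) and OPDA reductases (OPR), and JAZ proteins repress its target genes while being induced by it.

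Both genotypes were grown in PVC pipes and sampled before flowering, at the reproductive stage, in the first cycle of withheld water. IRAT109 is a japonica cultivar labelled drought-resistant and ZS97 is an indica cultivar that the methods call drought-sensitive, and neither carries a transgene. Stages were set by the relative water content of the leaf, at 94 to 95% for D0 (no stress), 83 to 88% for D1 (slight drought), 74 to 78% for D2 (moderate drought) and 65 to 69% for D3 (severe drought), so a stage is a leaf water status and not a fixed day. Each of the 8 groups had 2 biological replicates on 1 array each, which gives 16 arrays, and each genotype is a single cultivar.

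The replicates of a group correlated at 0.997 to 0.998 over all probe sets. Rubisco, light-harvesting and chlorophyllide genes, 15 probe sets in all, had group medians of 2057 to 6242, which fits the labelled leaf, although that median stood at 3199, 2705, 2643 and 2057 from D0 to D3 in IRAT109 and at 6242, 4424, 2582 and 2270 in ZS97. Floral organ MADS genes (3 probe sets) were at 5.80 to 16.8 in every group, 9 seed storage probe sets had group medians of 11.9 to 18.55 (the brightest of them averaged 593 to 2292), and 4 root iron uptake probe sets had medians of 18.8 to 34.7 at the later stages, against 108 in IRAT109 and 70.7 in ZS97 at D0. The brightest root probe set averaged 605 in IRAT109 and 312 in ZS97 at D0. The part of these shifts in the salT values was not tested. In these sections of leaf blade, fewer cells of a type and less RNA per cell cannot be told apart.

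In IRAT109, salT was lower at slight drought than before stress and highest at severe drought. The first probe set (its name ends in a_at), which has the higher mean intensity, gave 159.9 and 168.3 at D0, 108.6 and 97.6 at D1, 137.2 and 134.3 at D2, and 293.3 and 416.2 at D3. Both D1 arrays lay below both D0 arrays, and both D3 arrays lay above all 6 others. The difference from D0 was -0.60 at D1, -0.25 at D2 and 1.02 at D3 on the log2 scale (SE 0.17 each), so the value at D2 differed from D0 by less than 2 SE. The ratio of mean intensities to D0 was 0.628 at D1, 0.827 at D2 and 2.16 at D3.

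The step from D2 to D3 in IRAT109 was 1.27 on the log2 scale, a 2.61-fold difference in mean intensity, and the step from D1 to D2 was 0.35. The D3 replicates were the least alike of the drought arrays, with a mean of 355 ± 86.9 (SD, n = 2), and without the higher of them the difference between D3 and D0 was 0.78. By size of the rise from D2 to D3 in IRAT109, the 2 probe sets ranked 134 and 224 of 57381. For comparison, 0.627% of all probe sets passed the test at that step in IRAT109 and 0.228% in ZS97.

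In ZS97, most of the course of salT lay between slight and moderate drought. The first probe set gave 29.3 and 54.4 at D0, 263.0 and 229.4 at D1, 5006.9 and 5235.7 at D2, and 5920.6 and 5674.2 at D3. The 4 stages did not overlap, and each stage was above the one before it. On the log2 scale (intensity plus 16) the difference from D0 was 2.21 at D1, 6.51 at D2 and 6.69 at D3 (SE 0.17 each). The ratio of mean intensities to D0 was 5.88 at D1, 122 at D2 and 139 at D3.

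The step from D1 to D2 was 4.29 on the log2 scale, a 20.8-fold difference in mean intensity, and the step from D2 to D3 was 0.18, which is about its SE of 0.17. At D1 the mean intensity had covered 3.55% of the difference between D3 and D0, and at D2 it had covered 88.3%. On the log2 scale these shares were 33.1% and 97.3%. The description of the timing therefore depends on the scale: the proportional change was already large under slight drought, whereas nearly all of the absolute change came afterwards. The 2 salT probe sets ranked 1 and 2 of 57381 by the size of the rise from D1 to D2 in ZS97, a step at which 0.716% of all probe sets passed the limma test with a change over 2-fold.

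**Figure D1:**
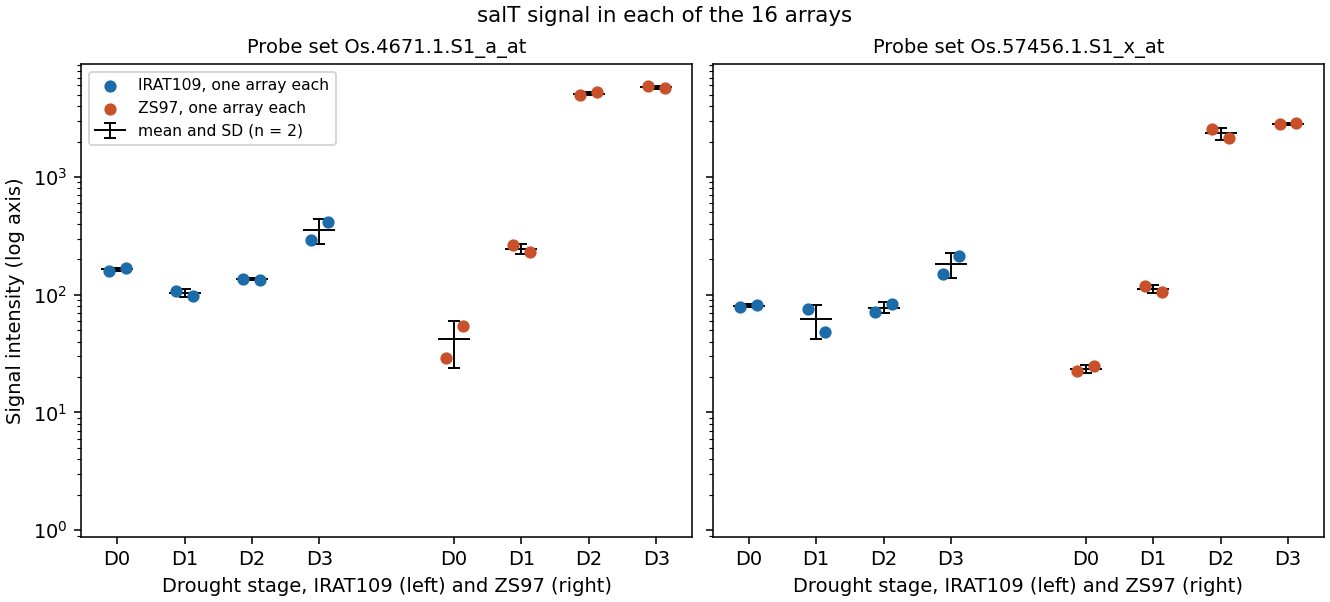
Signal intensity of salT on a log axis in each of the 16 arrays, at stages D0 to D3 of IRAT109 (blue) and ZS97 (orange), for the first probe set (left panel) and the second (right panel). Points are single arrays, and bars are the mean and SD of 2. In the left panel IRAT109 stays at 416.2 or below, and ZS97 reaches 5006.9 to 5920.6 at D2 and D3.

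The second probe set has a name ending in x_at, which marks probes that may also match other sequences. In IRAT109 it gave 78.8 and 82.2 at D0, 75.8 and 48.1 at D1, 72.0 and 83.7 at D2, and 151.4 and 214.9 at D3. In ZS97 it gave 22.3 and 24.6 at D0, 119.4 and 106.1 at D1, 2547.6 and 2145.7 at D2, and 2796.6 and 2850.4 at D3. In IRAT109 both D1 arrays lay below both D0 arrays, the D2 arrays overlapped each of these stages, and D3 stood above them, while ZS97 again showed 4 stages without overlap.

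The 2 probe sets correlated at 0.997 over the 16 arrays on the log2 scale, and since both read the same RNA this is no independent support. Differences from D0 in the second probe set were -0.33, -0.04 and 1.03 at D1, D2 and D3 in IRAT109, and 1.71, 5.90 and 6.17 in ZS97 (SE 0.16 each). The dip at D1 in IRAT109 was thus 2 SE in the second probe set, and its 2 arrays differed by more than the dip. The late value in IRAT109 and the step of 4.19 from D1 to D2 in ZS97 were close to those of the first probe set. The residual SD of salT was 0.21 and 0.20 in the first and second probe sets, against a median of 0.083 over all probe sets, so its replicates were less alike than those of a typical probe set.

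The order of the genotypes turned round between D0 and D1. Before stress, the first probe set averaged 164 ± 5.94 in IRAT109 and 41.9 ± 17.7 in ZS97 (SD, n = 2 each), and the arrays of the genotypes did not overlap. At D1 it averaged 103 ± 7.78 in IRAT109 and 246 ± 23.8 in ZS97, again without overlap. At D2 the means were 136 ± 2.05 in IRAT109 and 5121 ± 162 in ZS97, and at D3 they were 355 ± 86.9 in IRAT109 and 5797 ± 174 in ZS97.

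The difference IRAT109 minus ZS97 was therefore 1.67 at D0, -1.14 at D1, -5.08 at D2 and -3.99 at D3 on the log2 scale (SE 0.17 each). In the second probe set it was 1.29, -0.75, -4.65 and -3.85 at the same stages. As ratios of mean intensity in the first probe set, IRAT109 stood 3.92-fold above ZS97 at D0, and ZS97 stood 2.39-fold, 37.7-fold and 16.3-fold above IRAT109 at D1, D2 and D3. The gap was thus widest under moderate drought and narrower under severe drought, where IRAT109 was higher than at D2 and ZS97 was nearly level.

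Across the 8 groups, the mean of the first probe set stood in the order ZS97 D0, IRAT109 D1, IRAT109 D2, IRAT109 D0, ZS97 D1, IRAT109 D3, ZS97 D2 and ZS97 D3, from low to high. The second probe set gave the same order. In the first probe set no neighbours in this order shared a range, but the gap between ZS97 D1 (mean 246) and IRAT109 D3 (mean 355, SD 86.9) was little more than the spread of IRAT109 D3. In the second probe set, IRAT109 D2 could not be ordered against IRAT109 D1 or D0, since its arrays overlapped theirs. The level reached by IRAT109 under severe drought was hence near that of ZS97 under slight drought (relative water content 65 to 69% and 83 to 88%).

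Set against D0 of each genotype, the change in IRAT109 minus that in ZS97 was -2.81 at D1, -6.75 at D2 and -5.66 at D3 (SE 0.25 each). These 3 values share the D0 arrays and are not independent. By absolute size, the 2 probe sets ranked 1 and 3 of 57381 at D2, and 1 and 2 for the step from D1 to D2, where the difference between the genotypes was -3.94 in the first and -3.91 in the second. Over all probe sets, 2.85%, 4.20% and 3.41% had a called difference between genotypes in the change at D1, D2 and D3, and 0.821% in the step from D1 to D2.

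Several dehydrin genes, which served as comparators for abscisic acid responses, were already far above D0 at D1 in both genotypes. The list of dehydrin and LEA symbols held 10 probe sets of 7 genes. A probe set was called when its adjusted p in limma was under 0.05 and its change over 2-fold. At any of D1 to D3, 8 of the 10 rose and 0 fell in IRAT109 (4.22% of all probe sets rose and 5.40% fell), and 8 rose and 0 fell in ZS97 (4.70% rose and 4.61% fell). Their median log2 change at D2 was 2.02 in IRAT109 and 3.76 in ZS97, against 0.02 and -0.01 over all probe sets. At single stages from D1 to D3, 6.25%, 7.32% and 8.20% of all probe sets were called in either direction in IRAT109, and 5.44%, 7.26% and 8.39% in ZS97.

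The first RAB21 probe set gave 54.2 and 63.6 at D0 in IRAT109, 19744.1 and 18795.3 at D1, 24245.2 and 24120.1 at D2, and 32813.3 and 33584.7 at D3. In ZS97 it gave 89.5 and 87.4 at D0, 19096.1 and 18718.2 at D1, 27650.5 and 29028.9 at D2, and 32003.7 and 32830.9 at D3. Both genotypes had thus made most of the change by slight drought, with 8.01 ± 0.06 in IRAT109 and 7.50 ± 0.06 in ZS97 on the log2 scale at D1 (estimate ± SE). The step from D1 to D2 in ZS97, where salT moved most, was 0.58 for RAB21, below 2-fold. At that step 3 of the 10 dehydrin and LEA probe sets were called higher (0.462% of all probe sets were) and 0 lower, with a median of 0.63. They were RAB16D (1.64), RAB16C (1.21) and 1 of 3 for Dhn1 (1.03). The Dhn1 call was lost without the second D1 array or the first D2 array of ZS97. Several of the list also rose late in IRAT109. For its step from D2 to D3, 4 of the 10 were called higher and 0 lower, with a median of 0.85. Of all probe sets, 0.627% were called there in either direction. Over that step the mean intensity of RAB16C went from 3720 to 10467, and that of RAB16B from 7066 to 15179.

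RAB16B, another dehydrin of the RAB16 cluster, rose by 7.31 in IRAT109 and 6.87 in ZS97 at D1, with a step of 0.68 from D1 to D2 in ZS97. LEA19, a late embryogenesis abundant gene, rose by 6.50 in IRAT109 and 6.95 in ZS97 at D1, and RAB16C rose by 1.71 and 1.20. The second RAB21 probe set rose by 7.77 in IRAT109 and 7.42 in ZS97. For these genes the difference between the genotypes at D2 was between -0.48 and 0.25, none of it called, whereas for salT it was -6.75.

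RAB16D (LOC4350451) was the dehydrin whose course came closest to that of salT. In IRAT109 it gave 73.9 and 80.5 at D0, 81.6 and 72.8 at D1, 106.7 and 100.2 at D2, and 355.0 and 370.7 at D3. In ZS97 it gave 57.7 and 62.3 at D0, 730.4 and 751.8 at D1, 2372.9 and 2318.2 at D2, and 5650.5 and 5477.8 at D3. In IRAT109 it was called at D3 and not before, as the change against D0 was -0.00 at D1, 0.36 at D2 and 2.02 at D3, the last with an adjusted p of 3.54e-11 in limma.

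In ZS97, RAB16D rose by 3.32, 4.96 and 6.20 at D1, D2 and D3, and the difference between the genotypes in the change was -3.32, -4.60 and -4.17, called at each stage. It had no dip at D1 in IRAT109, its step from D1 to D2 in ZS97 was 1.64 where that of salT was 4.29, and it was at a similar level in IRAT109 and ZS97 before stress (means 77.2 and 60.0). In ZS97 it went on rising from D2 to D3, by 1.24 (adjusted p = 4.79e-07, limma), where salT was 0.18 higher.

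ICL, isocitrate lyase of the glyoxylate cycle, was compared because it was already known here to rise late in IRAT109. In IRAT109 it gave 19.2 and 18.9 at D0, 50.1 and 33.4 at D1, 96.7 and 93.8 at D2, and 549.0 and 529.8 at D3, and in ZS97 25.9 and 18.9, 1276.4 and 1341.3, 6108.1 and 5737.4, and 5507.4 and 5237.1. Like salT, it was nearly level from D2 to D3 in ZS97 (-0.14 ± 0.11). Unlike salT, it was at the same low level in IRAT109 and ZS97 at D0, and most of its log2 change in ZS97 (5.11 of 7.28 at D2) had occurred by D1. That contrast in timing depends on the scale. In mean intensity ICL stood at 22.4, 1309 and 5923 at D0, D1 and D2 in ZS97. Most of its absolute change thus came after D1, as for salT.

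**Figure D2:**
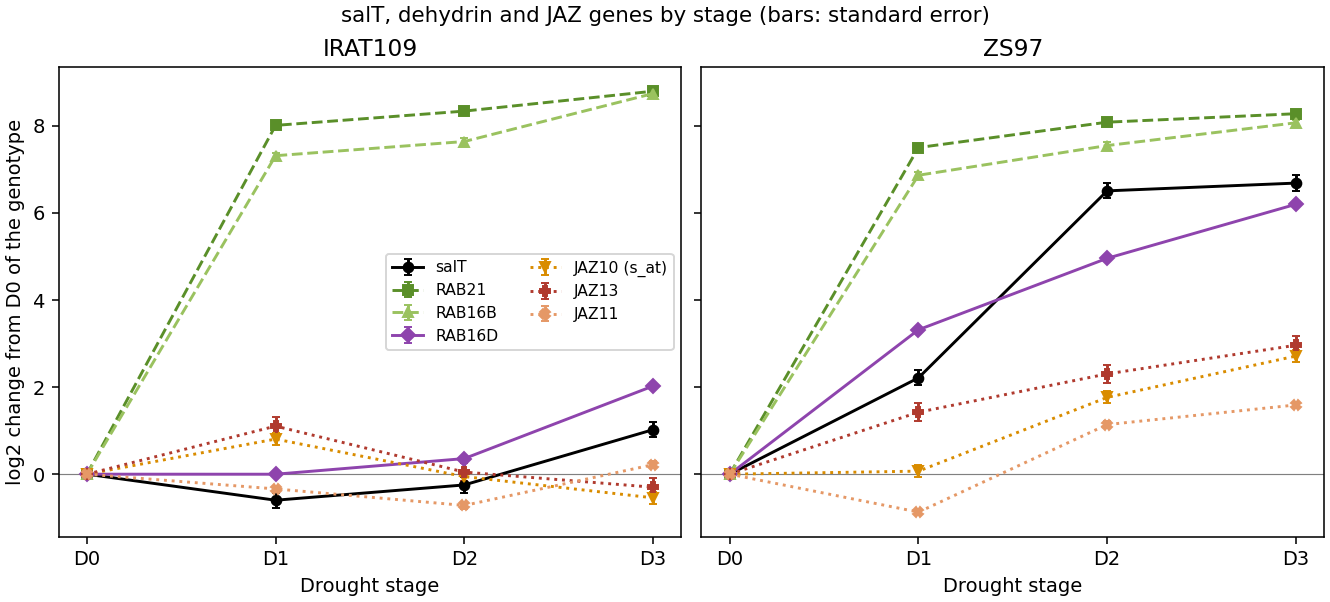
Log2 change from D0 of the same genotype at each stage, for salT (first probe set), 3 RAB16 cluster dehydrins and 3 JAZ genes, in IRAT109 (left) and ZS97 (right). Bars are standard errors. The RAB21 and RAB16B lines are high from D1 on in both panels, whereas salT stays between -0.60 and 1.02 in IRAT109 and stands at 2.21 at D1 and 6.51 at D2 in ZS97.

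Among genes of jasmonate synthesis and signaling, several JAZ genes differed between the genotypes at the same step as salT, and the synthesis genes that changed most fell in both. The list held 44 probe sets of 39 genes. At any stage 2 rose and 9 fell in IRAT109 (4.22% and 5.40% of all probe sets), and 5 rose and 10 fell in ZS97 (4.70% and 4.61%). The median log2 change at D2 was -0.31 in IRAT109 and -0.24 in ZS97.

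The change differed between the genotypes at any of D1 to D3 in 7 of the 44, where 5.53% of all probe sets were called. For the step from D1 to D2, 8 of the 44 were called and all 8 were negative, IRAT109 minus ZS97 (0.667% of all probe sets were called negative). Among these 8, the call of JAZ12 was lost without the second D1 array of ZS97. The call of LOX5, a synthesis gene, was lost without the first D1 or first D2 array of IRAT109, or the first D1 array of ZS97. At that step in ZS97 3 of the 44 rose and 0 fell (0.462% of all probe sets rose and 0.254% fell).

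JAZ11 made the largest such step, 2.01 ± 0.08 in ZS97. It gave 110.2 and 127.1 at D0 in IRAT109, 98.9 and 82.3 at D1, 65.9 and 65.5 at D2, and 140.2 and 140.5 at D3, and in ZS97 130.2 and 135.2, 62.7 and 68.0, 315.6 and 307.4, and 433.1 and 430.1. It resembled salT in being lower under slight and moderate drought than at D0 in IRAT109 (-0.34 and -0.72, neither past 2-fold), and differed from it in being lower at D1 than at D0 in ZS97 (-0.87).

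JAZ10 (the probe set ending in s_at, which may match several transcripts) stood at 0.81, -0.06 and -0.54 from D1 to D3 in IRAT109, with none called, and at 0.07, 1.76 and 2.71 in ZS97, with the last 2 called. In the other JAZ10 probe set the difference between the genotypes in the change at D3 was smaller, -1.10 against -3.26. Its call at D3 in ZS97 was lost without the second D3 array of ZS97. JAZ13 rose by 1.10 at D1 in IRAT109 and stood at 0.05 and -0.30 at D2 and D3, and without either the second D0 array or the first D1 array of IRAT109 the call at D1 was lost. In ZS97 it rose by 1.42, 2.30 and 2.96. JAZ8 rose by 1.32 from D1 to D2 in ZS97 but was at -0.04 relative to D0 there at D2. None of these JAZ genes was higher at D3 than at D0 in IRAT109 by 2-fold, where salT was 2.16-fold higher.

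The LOX, AOS, AOC and OPR members, a subset taken after the values were seen, held 21 probe sets of 18 genes. At any stage 0 rose and 6 fell in IRAT109 (4.22% and 5.40% of all probe sets), and 0 rose and 8 fell in ZS97 (4.70% and 4.61%). The median log2 change of this subset at D2 was -0.51 in IRAT109 and -0.56 in ZS97. Of the 19 JAZ and TIFY probe sets, 2 rose and 3 fell in IRAT109, and 5 rose and 2 fell in ZS97, beside the same shares of all probe sets. CM-LOX1, a lipoxygenase, gave 30.3 and 24.1 at D2 in IRAT109 against 846.9 and 1015.2 at D0, and in ZS97 65.5 and 61.3 at D2 against 1071.5 and 1042.1 at D0. Its change on the log2 scale was -4.45 in IRAT109 and -3.76 in ZS97, both called. One of the CM-LOX2 probe sets was at -3.38 in IRAT109 and -3.90 in ZS97 at the same stage, both called. OPR10 was also called lower in both genotypes, as was JAZ7, a JAZ repressor.

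**Figure D3:**
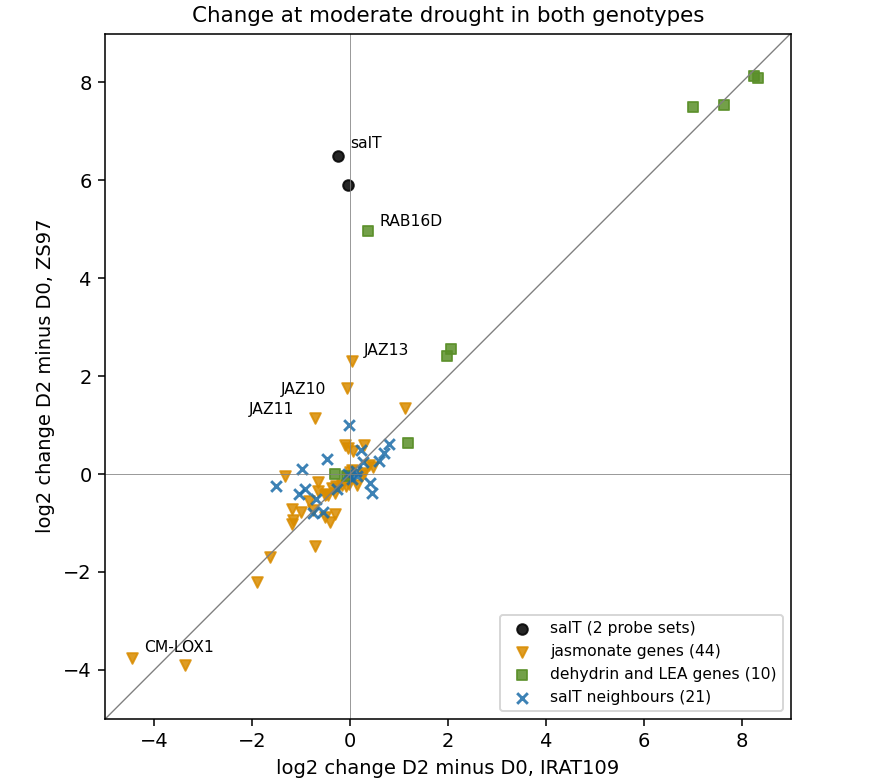
Log2 change under moderate drought, D2 minus D0, in IRAT109 (x axis) and ZS97 (y axis), for the salT probe sets (black), jasmonate genes, dehydrin and LEA genes, and the neighbours of salT on the chromosome. Each point is a probe set, and the diagonal marks equal change. Both salT points lie near 0 on the x axis and near 6 on the y axis, with RAB16D as the nearest member of the lists.

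For the genes on either side of salT on chromosome 1, no probe set was called at the ZS97 step from D1 to D2, where salT moved most. The 10 nearest annotated genes with a probe set on each side gave 21 probe sets of 20 genes. Of these, 0 rose and 4 fell at any stage in IRAT109 (4.22% and 5.40% of all probe sets), and 1 rose and 1 fell in ZS97 (4.70% and 4.61%). The change differed between the genotypes in 3 (5.53% of all). At the step from D1 to D2 in ZS97, 0 of the 21 were called, where 0.716% of all probe sets were, so a count of 0 is near what the background gives.

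LOC4326469, the nearest measured gene on 1 side and the brightest uncalled neighbour, gave 3124.6 and 3152.8 at D2 in ZS97 against 2850.2 and 2405.1 at D0, a difference of 0.26. LOC4326473, the nearest on the other side, was at -0.18 in ZS97 at the same stage. The neighbour that rose in ZS97 was LOC4326482, with 62.3 and 75.0 at D2 against 24.7 and 27.7 at D0, a change of 1.001 ± 0.11 that lies at the 2-fold threshold. Its call was lost without the first D0 array or the second D2 array of ZS97.

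The other called neighbours fell. LOC4326481 gave 20.2 and 15.3 at D3 in IRAT109 against 82.5 and 92.9 at D0 (it fell by 1.62), while in ZS97 it was at 13.8 and 13.6 at D0, near the lowest intensities of the arrays. LOC4326475 fell by 1.28 at D3 in IRAT109, LOC4326494 fell by 1.05 at D2 in IRAT109 (a call lost without the second D0 array of IRAT109), and LOC4326490 fell by 1.27 in IRAT109 and 1.20 in ZS97 at D3. Like salT, 4 of the 21 neighbours were called higher in IRAT109 than in ZS97 at D0 (3.07% of all probe sets were), among them LOC4326475, which gave 242.1 and 247.8 in IRAT109 and 29.2 and 18.4 in ZS97. For LOC4326475 this order held at all 4 stages, and it did not turn round as it did for salT.

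Over the 16 arrays, 35 of 57379 other probe sets had a Pearson r over 0.95 with the first salT probe set on the log2 scale, and the highest was 0.978. This likeness is a description over arrays that share 8 groups, and it rests mainly on the height of ZS97 at D2 and D3. The count was 17 without the first D3 array of ZS97 and 66 without the second D1 array of ZS97, with 17 and 35 of the original 35 among them. Of the 35, 22 had a gene symbol and 0 had a gene name beyond a locus number.

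Their amplitude was smaller than that of salT. The SD of the log2 values was 0.16 to 1.72 (median 0.82) for the 35, against 2.40 for salT, and 164 of the 57379 had a larger SD than salT. The 35 were picked by r with salT over these same arrays, so the counts of directions that follow come largely from that choice. All 35 were higher at D2 than at D1 in ZS97, with a median of 1.13, and all 35 were higher at D3 than at D2 in IRAT109, with a median of 0.47. At D0, 30 of the 35 were higher in IRAT109 than in ZS97, with a median of 0.10 on the log2 scale against 1.67 for salT.

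The r of these probe sets was lower within IRAT109 than within ZS97. Over the 8 IRAT109 arrays r of the 35 was -0.03 to 0.98 (median 0.77), and over the 8 ZS97 arrays it was 0.95 to 0.996 (median 0.98). Over IRAT109 alone 60 probe sets passed 0.95, of which 1 was among the 35, and over ZS97 alone 1065 did, of which 34 were.

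The probe set most like salT read LOC4330772, which gave 32.2 and 27.7, 39.6 and 36.9, 42.0 and 26.6, and 63.4 and 74.4 from D0 to D3 in IRAT109. In ZS97 it gave 18.0 and 20.9, 70.8 and 78.3, 275.0 and 268.7, and 252.5 and 256.6. It shared the order at D0, the step from D1 to D2 in ZS97 and the late difference in IRAT109, but not the lower value at D1 in IRAT109. LOC4333590, the sixth by likeness, did not follow salT in IRAT109 (r -0.03), where it was at 75.0 and 94.9 at D3 against 82.7 and 83.9 at D0, but did in ZS97 (r 0.996).

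The others among the 10 most like salT had r between 0.961 and 0.978. They were LOC4346304 (0.967), LOC4337615 (0.964) and LOC4340988 (0.961), and 5 probe sets with no gene symbol. Over the IRAT109 arrays alone, r was 0.93 for LOC4337615 and 0.98 for LOC4324172, which was picked out after its values were seen. LOC4349989, also picked out in that way, had a lower r there (0.89) but shared several features of the IRAT109 course. It gave 94.3 and 103.3 at D0, 51.2 and 64.1 at D1, 51.6 and 52.3 at D2, and 158.8 and 151.3 at D3 in IRAT109, and 29.8 and 38.4, 119.8 and 133.0, 340.3 and 336.4, and 370.4 and 350.8 in ZS97. It thus shared with salT the higher level of IRAT109 at D0, the dip at D1, and the late peak. Its lower level at D2 had no clear counterpart in salT, whose D2 value was within 2 SE of D0.

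**Figure D4:**
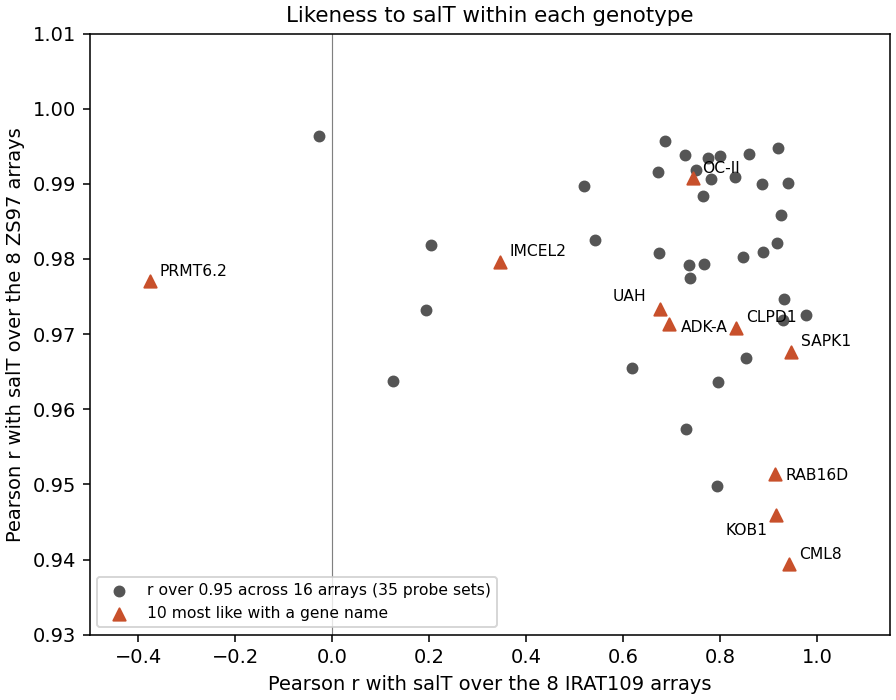
Pearson r with salT over the 8 IRAT109 arrays (x axis) and over the 8 ZS97 arrays (y axis, which starts at 0.93). Grey circles are the 35 probe sets with r over 0.95 across all 16 arrays, and orange triangles the 10 most like salT that carry a gene name. In IRAT109 they spread from -0.38 to 0.98, whereas in ZS97 the lowest is 0.939.

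Among probe sets with a gene name, the closest was UAH, ureidoglycolate amidohydrolase of purine breakdown, with r 0.946 and rank 51. CML8 (calmodulin-like, 0.942), RAB16D (0.941) and SAPK1 (a protein kinase activated by osmotic stress, 0.941) came next, then OC-II (the cysteine proteinase inhibitor oryzacystatin, 0.937), IMCEL2 (0.935), KOB1 (0.928), CLPD1 (a plastid Clp chaperone, 0.926), PRMT6.2 (an arginine methyltransferase, 0.924) and ADK-A (adenylate kinase, 0.924). Of these, RAB16D alone had an SD on the log2 scale (2.29) near that of salT, and CML8 had 0.20. PRMT6.2 had r -0.38 in IRAT109 but followed salT in ZS97 (r 0.98).

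SAPK1 gave 1078.4 and 1045.1 at D0, 1092.3 and 951.6 at D1, 1049.9 and 1054.7 at D2, and 1732.1 and 1895.4 at D3 in IRAT109, and 772.8 and 874.0, 1498.8 and 1609.5, 2415.9 and 2578.1, and 2425.2 and 2453.3 in ZS97. It stood above ZS97 in IRAT109 at D0 and below it from D1 on, the same turn as salT, within a range of 1.72 on the log2 scale. The turn was not particular to SAPK1 among the named probe sets. KOB1 shared it, with means of 2430 in IRAT109 and 1720 in ZS97 at D0, and 2130 and 2696.5 at D1.

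The named probe sets with the lowest r were NIA1, a nitrate reductase (-0.954), CIGR2, a GRAS-family gene (-0.951), CAB2R, a chlorophyll a/b-binding protein (-0.939), IAA3, an auxin response repressor (-0.938), and TIP2;2, an aquaporin of the vacuole (-0.931). NIA1 gave 838.7 and 826.4 at D0, 1152.8 and 962.0 at D2, and 629.9 and 854.2 at D3 in IRAT109, and 1076.8 and 1277.4, 413.3 and 344.4, and 292.8 and 280.5 at these stages in ZS97. It mirrored salT in being lower in IRAT109 than in ZS97 at D0 and higher at D2. Only 6 probe sets had r under -0.95, and the lowest was -0.967.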

How the data were processed

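Flag leaf RNA was hybridized to 16 Affymetrix rice arrays. The authors deposited a linear signal intensity for each probe set on each array. The labels name MAS5 and the methods name the robust multiarray average, so the summary method is not settled. Intensities ran from 3.1 to 33584.7. The number of arrays limits the precision.

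Log2 of the intensity plus 16 was fitted with limma 3.58.1 (R 4.3.3) as 8 group means over all 57381 probe sets, with p-values adjusted by Benjamini-Hochberg. A call needed an adjusted p under 0.05 and a change over 2-fold. The rank product test of the methods was not run, and an unadjusted p under 0.01 was tried in its place. Code was tested on simulated data.

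The annotation gave 1 gene symbol to 22436 probe sets, several to 95 and none to 34850, and 3193 had a name beyond a locus or clone identifier. Lists were matched by symbol or synonym. No relative of salT was matched by symbol, and protein, promoter and probe sequences were not used here. The members, lists and rules were chosen with earlier results of these data known. Named were salT, the 10 probe sets most like it, and the 10 most like and 5 least like with a gene name. Up to 6 members of each list (called by largest change, then brightest), RAB21, RAB16B and ICL were named too. A few were chosen after their values were seen (JAZ8, JAZ11, JAZ12, LOX5, LOC4326473, LOC4324172 and LOC4349989).

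Replicate numbers showed no consistent pairing of arrays. Correlations of same-numbered deviations ran from -0.32 to 0.16 (median 0.004), with 1 of 28 over 0.1. That count took positive values only, and a batch that crosses the numbers was not tested. Separate plants per replicate are stated only as biological replicates, so p-values measure the spread between these samples. Leaving out an array, other added constants, other normalizations, a dim filter, an intensity trend, 1 genotype alone and other likeness measures were tried.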

Additional observations from a re-analysis of the deposited data

Results flagged for a closer look

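Among the comparison lists, 12 probe sets differed between the genotypes in their change from D0 by the interaction test in limma. The difference is IRAT109 minus ZS97, over 2-fold, and each is given at its largest stage. They were 7 of the 44 jasmonate, 2 of the 10 dehydrin and LEA and 3 of the 21 neighbour probe sets. Of all probe sets, 5.53% were called in this way at any of D1 to D3. Probe sets with a more negative change in IRAT109 were RAB16D at D2 (-4.60, adjusted p = 2.03e-11), JAZ13 at D3 (-3.26, 5.84e-06), JAZ10 at D3 in both of its probe sets (-3.26, 1.88e-07, in the one that may match several transcripts and -1.10, 0.000111, in the other), JAZ11 at D2 (-1.86, 1.02e-07) and JAZ8 at D2 (-1.29, 8.66e-06). The salT neighbours LOC4326475 at D3 (-1.49, 0.000328), LOC4326481 at D3 (-1.32, 4.64e-06) and LOC4326482 at D2 (-1.02, 0.000292) were on the same side. On the other side were 2 probe sets of CM-LOX2 at D1 (1.70, 3.00e-06, and 1.16, 4.62e-06) and rab25, a dehydrin, at D3 (1.33, 8.33e-05). The largest of the 12, RAB16D, was below the -6.75 of salT at D2 in size. Without 1 array, the differences of LOC4326482 (without the second D0 array of IRAT109, or the first D0 or second D2 array of ZS97) and of the second JAZ10 probe set (without the second D3 array of ZS97) were no longer called. At D0 in ZS97, LOC4326481 averaged 13.7 and LOC4326475 averaged 23.8, near the added 16. Such low values limit how far a fall in ZS97 could be measured for these neighbours.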

How the results depend on the processing

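For the salT differences between stages and between genotypes, no direction reversed under any alternative. Counts have no direction, and the differences between genotypes in the change of salT were not part of this check. Of the values other than those leaving out an array, 235 of 275 stayed within 1 residual SD, or 1.5 times for a count. With 1 in place of 16 added before log2, the differences of salT from D0 in ZS97 were 2.59 (D1), 6.97 (D2) and 7.14 (D3), and IRAT109 minus ZS97 at D0 was 2.01. With 64 these were 1.56, 5.62, 5.80 and 1.12, the ZS97 step from D1 to D2 was 4.06, the IRAT109 step from D2 to D3 was 1.05, and IRAT109 minus ZS97 was -0.89 at D1 and -4.70 at D2. In the second probe set, an alternative added after seeing the data, the values were 1.71, 5.90 and 6.17 in ZS97, -0.33 at D1 in IRAT109, and 1.29, -0.75 and -4.65 for IRAT109 minus ZS97 at D0, D1 and D2.

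With 64 added, jasmonate calls were 1 up and 5 down in IRAT109, 5 down in ZS97 and 4 differing between genotypes. The dehydrin list then had 1 such difference, the neighbours 1 down in IRAT109, 0 up in ZS97 and 1 difference, and all probe sets 1972 differences against 3171. With 1 added, neighbours had 1 up in IRAT109 and 2 up in ZS97. With 5 neighbours per side, 1 was down in IRAT109, 0 up and 0 down in ZS97, and 1 differed, a smaller list by construction. The count of probe sets like salT was 55 with 64 added, 5 by Spearman's rho, 110 over group means, 60 over IRAT109, 1065 over ZS97 and 182 after subtracting each D0 mean. The cause of these shifts was not tested.

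Leaving out each array in turn gave, for salT in IRAT109, -0.66 to -0.53 at D1, -0.28 to -0.21 at D2, 0.78 to 1.26 at D3, 0.28 to 0.42 for D1 to D2 and 1.03 to 1.51 for D2 to D3, and in ZS97 1.89 to 2.53, 6.19 to 6.83, 6.37 to 7.003, 4.20 to 4.39 and 0.15 to 0.21. For IRAT109 minus ZS97 the ranges were 1.35 to 1.99 (D0), -1.23 to -1.04 (D1), -5.11 to -5.05 (D2) and -4.23 to -3.75 (D3). Jasmonate counts were 1 to 2 up and 9 to 10 down in IRAT109, 4 to 5 up and 9 to 11 down in ZS97, and 6 to 8 differing. Neighbour counts were 3 to 5 down in IRAT109, 0 to 1 up in ZS97 and 2 to 4 differing. Probe sets like salT numbered 17 to 66.

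The replicate numbers gave no consistent pairing. With the replicate block no list count changed (jasmonate 5 up in ZS97, dehydrins 8 up). In that fit 2698 probe sets rose in ZS97, against 2697 without the block. Low intensities limit the D0 values of ZS97, where salT read 29.3 and 54.4 and the constant moves the log2 change. Whether the probes match both genotypes equally was not analysed here. Protein relatives and promoter motifs were not run.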
